A study of Rattus norvegicus with 6 samples.

Results

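The baseline transcriptome described here is that of adult rat liver after dosing with corn oil, the vehicle of a chemical dosing study. Its members are the 3 arrays labelled with the treatment corn oil, of 6 arrays in all. The remaining 3 arrays hold liver of rats dosed daily with o-anthranilic acid (1000 mg/kg) and were not compared. Each array held the liver RNA of 1 rat, so the 3 values of a gene below are those of 3 animals, called rats 1, 2 and 3 by their replicate number. All 3 were male Sprague-Dawley rats of the Crl:CD(SD) stock, 5 weeks old when bought, kept on a basal diet with 12 h of light. The labels give the length of dosing as 9 weeks in the protocol and as 28 days in the series design, so the age at sampling is not settled. The hour of sampling and any fasting are not given in the sources used here. Per the file headers the 3 arrays lay side by side on a single slide, and as each rat had 1 array, a difference between rats cannot be told apart from a difference between their arrays.

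The liver parenchyma is built mainly of hepatocytes, which make most plasma proteins, store and release glucose, turn nitrogen into urea, oxidise fat, make bile acids and modify drugs. Kupffer cells, the resident macrophages, and fenestrated endothelial cells line the sinusoids, stellate cells store vitamin A, and cholangiocytes line the bile ducts. In rats the male liver also secretes urinary proteins that carry pheromones, and several of its cytochromes P450 follow the male pattern of growth hormone release.

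Each probe's value is its background-subtracted fluorescence divided by the array's 75th percentile over the 61657 non-control probes, on the log2 scale. A value of 0 therefore lies at the 75th percentile, and each step of 1 stands for 2-fold more fluorescence. Errors are standard deviations (SD) between the 3 rats in log2 units, n = 3 throughout, and no p-value is given because no groups were compared. A probe counts as detected where the scanner software called it well above background on all 3 arrays. That held for 33095 probes (53.7%), while 24193 (39.2%) were above background on no array. Through RefSeq accessions 27460 probes could be named. The named probes measure 15284 genes, of which 10184 (66.6%) had a detected probe, 918 (6.01%) were above background on some arrays only, and 4182 (27.4%) on none. Of the 15284 genes, 6031 (39.5%) were detected with a level above the 75th percentile. None of 308 negative control spots was called on all 3 arrays, and 16 were called on at least 1.

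A gene is represented by its brightest detected probe, and brightness is not abundance, since probes bind with different strength. Among 4937 genes with more than 1 detected probe, the probes of a gene spanned a median of 2.08 log2 units and in 939 genes over 4 units. The order of genes given here is an order of probe brightness. Among the 30 brightest genes, the 22 that had more than 1 detected probe had a median span of 0.40 units. Some spans there were wide, as in Mug1 (brightest probe 9.41, dimmest 3.35) and Saa4 (9.53 and 5.69). As these genes were chosen by their brightest probe, a small median span does not free their order from probe effects.

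The brightest transcripts of the corn oil liver were those of secreted plasma proteins, lipid carriers and urinary proteins. Of the 30 brightest genes, 22 were on the lists of secreted liver proteins, 5 on the lists of intermediary metabolism and none on those of drug metabolism. Haptoglobin (Hp), which binds free haemoglobin, led with 10.04, 10.10 and 10.22 in rats 1, 2 and 3. Obp3, described with the urinary proteins, came next. Apolipoprotein E (Apoe), a ligand for lipoprotein uptake, read 9.96 ± 0.04, and the fibrinogen beta chain (Fgb), a clotting protein, read 9.81, 9.79 and 9.86. Of the 30 neighbouring pairs in the order, 27 overlapped between rats. Most of the order among the brightest genes is thus within the spread between rats.

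Urinary proteins formed a group at the top, most of them steady between rats by their brightest probe. Obp3, a lipocalin that carries odorants, read 10.02, 9.93 and 10.12. Mup4l4 (9.89 ± 0.03), Mup5 (9.89 ± 0.03), Mup4l3 (9.71 ± 0.0036) and Mup4l1 (9.51 ± 0.02) belong to the same lipocalin family. Rup2, named as another urinary protein, read 9.57 ± 0.06. Members of this family are near-identical, so the share of signal that belongs to each copy is uncertain.

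Sequence upstream of the brightest genes is shown because the TATA box letters TATAAA were more frequent there than at other genes. For each gene the 60 bases before the RefSeq start on GRCr8 are given on the gene's strand, 5′ to 3′, with TATAAA in capitals.
Obp3 (chr5:79640676-79640735, minus strand): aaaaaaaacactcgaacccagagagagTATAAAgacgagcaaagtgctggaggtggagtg
Mup4l3 (chr5:80318373-80318432, minus strand): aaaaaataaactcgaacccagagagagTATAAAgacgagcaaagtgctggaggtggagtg
Mup4l4 (chr5:79707808-79707867, minus strand): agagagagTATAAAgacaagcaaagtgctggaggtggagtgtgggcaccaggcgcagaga
Mup5 (chr5:79999696-79999755, minus strand): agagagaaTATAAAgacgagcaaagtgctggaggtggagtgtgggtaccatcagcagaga
Fabp1 (chr4:104749280-104749339, plus strand): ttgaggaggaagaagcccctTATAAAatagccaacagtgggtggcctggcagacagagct
Rbp4 (chr1:245313552-245313611, minus strand): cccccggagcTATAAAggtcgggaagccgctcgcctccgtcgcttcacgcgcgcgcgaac
Ambp (chr5:81593858-81593917, minus strand): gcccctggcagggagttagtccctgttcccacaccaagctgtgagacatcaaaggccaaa
The 4 urinary protein genes carry nearly the same letters around the motif, which begins 33 bases before the start in Obp3 and Mup4l3 and 52 bases before it in Mup4l4 and Mup5. Fabp1 and Rbp4 hold it in other surroundings, and Ambp, among the brightest too, does not hold it in this window.

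Of the 30 brightest genes 24 had a promoter in the RefSeq table, and 9 of these (37.5%) held TATAAA within those 60 bases on the gene's strand. The share was 29.5% (23 of 78) among the 100 brightest and 10.9% (44 of 402) among the 500 brightest. In the brightest 10% of detected genes it was 7.03%, and in the 9 dimmer groups of equal size it lay between 1.25% and 3.94%. Over all 24206 promoters in the table with an unshared symbol it was 3.03%. The same letters on the opposite strand stood in 1 of the 24. The GC content of the 250 bases upstream had a median of 46.6% in the 30 brightest and 59.2% over all 8032 detected genes with a promoter. Base composition therefore moved with the motif share, its part in the result was not tested, and the urinary protein copies are not independent of each other.

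**Figure D1:**
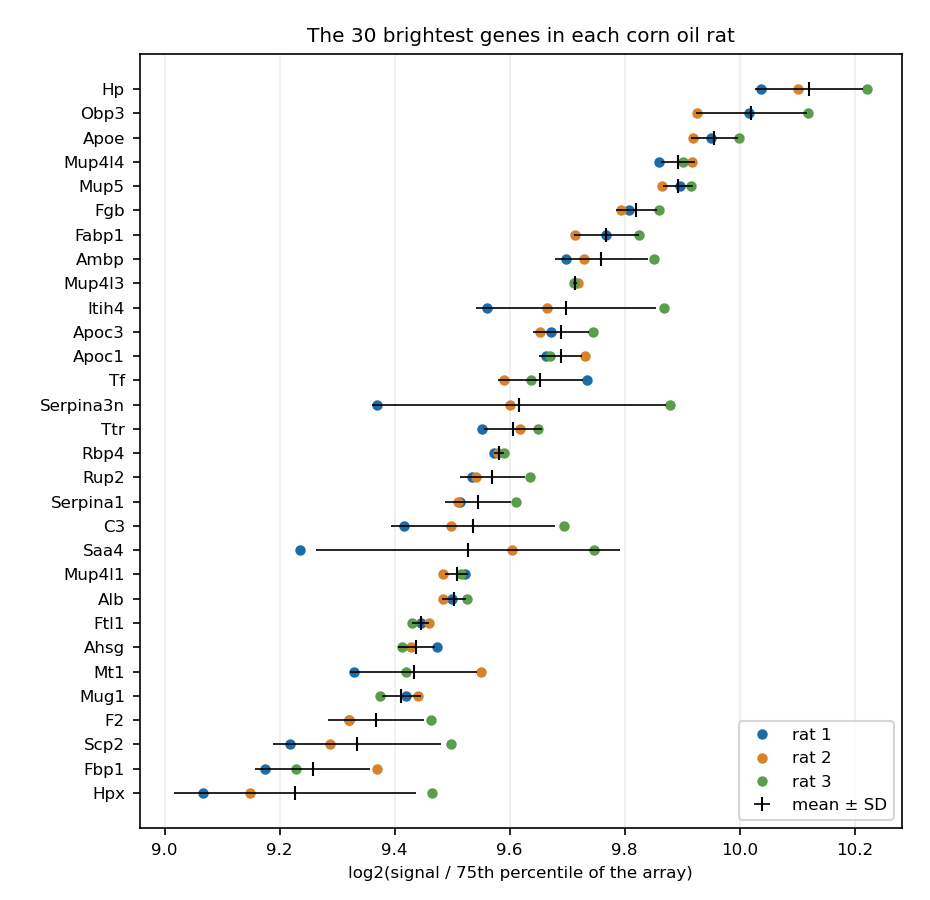
Log2 signal over the array's 75th percentile of the 30 brightest genes, 1 coloured point for each of 3 corn oil rats, with the mean and SD as a black tick and line. Hp leads at 10.12 and Hpx closes at 9.23, and most neighbours overlap; Serpina3n and Saa4 have the widest spread.

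Plasma protein genes were detected almost without exception, and most lay far up the scale. All 15 measured protease inhibitor genes, all 16 apolipoprotein genes and all 23 complement genes were detected, with medians of 7.62, 8.47 and 5.82, against 0.74 over all detected genes. Albumin (Alb), the main plasma protein, read 9.50, 9.48 and 9.53 and so varied little (SD 0.02). Transferrin (Tf), the iron carrier, read 9.65 ± 0.07 and transthyretin (Ttr), which carries thyroid hormone, 9.61 ± 0.05. Complement C3 read 9.54 ± 0.14. Of the coagulation genes 13 of 14 were detected, led by Fgb and prothrombin (F2, 9.37 ± 0.08), with factor VII (F7, 1.51 ± 0.28) dimmest.

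Acute phase genes were detected in 13 of 14 cases, with levels from 10.12 down to -1.98. Hp and Fgb were at the top, while lipocalin 2 (Lcn2) read only -1.98 ± 0.48 and Reg3b was not detected. The gene of alpha-2-macroglobulin (A2m), an inducible inhibitor in the rat, read 1.88, 1.29 and -0.22, lowest in rat 3. Serpina3n read 9.37, 9.60 and 9.88, and Orm1, the gene of alpha-1-acid glycoprotein, 6.31, 6.54 and 7.19. Both were lowest in rat 1 and highest in rat 3, and 16 of 23 complement genes and 10 of 13 coagulation genes were also highest in rat 3. Over all 10184 detected genes 37.1% were highest in that rat. So were 10 of 17 commonly used reference genes and 13 of 21 genes of albumin and other transport and binding proteins. RNAs added as controls, at medium and high level, also read highest on the array of rat 3. The part of the array in these values was not tested.

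Drug metabolism genes were nearly as often detected, with wider spread. Of the 34 measured cytochrome P450 genes of families 1 to 3, with their 2 electron donors among them, 30 were detected and 29 lay above the 75th percentile. The testosterone hydroxylase Cyp3a2 read 9.15, 9.28 and 8.80, and Cyp2d5, a polymorphic drug hydroxylase family member, 9.03 ± 0.03. The 4 not detected were Cyp1a1 and Cyp1b1, which respond to aryl hydrocarbons, and Cyp2a3 and Cyp2j10. Cyp1a2, the constitutive hepatic member of that family, read 5.73 ± 0.11 in the same livers. Of this list 17 of 30 genes were highest in rat 1, against 32.7% of all detected genes. The median SD of the list was 0.23, against 0.12 over all detected genes.

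Among conjugation enzymes 37 of 40 were detected, with a median of 5.40. The glutathione transferase gene Gsta5 was brightest at 8.72, 8.68 and 7.78, lower in rat 3. Ugt2a1 and Ugt2b7 were not detected, and the sulfotransferase gene Sult2a2 was above background on some arrays only. Carboxylesterases and alcohol and aldehyde dehydrogenases were detected in 22 of 23 cases, from the carboxylesterase Ces1c (8.56 ± 0.30) to Aldh3a1 (-1.08 ± 0.13). Aldh1a1, which makes retinoic acid, read 6.23, 5.91 and 4.61. Many of these enzymes have close relatives, and assignment to a single copy is uncertain.

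Nitrogen and amino acid metabolism was broadly detected. In the urea cycle list 11 of 12 genes were detected, led by the arginase gene Arg1 (7.57, 7.72 and 7.70) and the argininosuccinate lyase gene Asl (7.14, 7.52 and 7.10). The kidney form Arg2 was not detected. Carbamoyl phosphate synthase (Cps1), an abundant mitochondrial protein of liver, read 3.75 ± 0.21, on a scale that orders probes and not amounts. Of 41 amino acid breakdown genes 40 were detected, led by Bhmt, which remethylates homocysteine (8.73 ± 0.13), and Mat1a, which makes S-adenosylmethionine (8.08 ± 0.10). Ido1, the tryptophan-cleaving enzyme outside the liver, was not detected, whereas its hepatic counterpart Tdo2 read 5.85 ± 0.15.

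Glucose metabolism was also broadly detected. All 19 gluconeogenesis and glycogen genes were detected, led by fructose-bisphosphatase (Fbp1, 9.26 ± 0.10) and pyruvate carboxylase (Pc, 7.96 ± 0.12). The catalytic subunit of glucose-6-phosphatase (G6pc1) read 6.53, 6.41 and 7.83, highest in rat 3. The muscle and brain phosphorylases Pygm (-2.95 ± 0.03) and Pygb (-2.01 ± 0.04) were the dimmest, and the liver form Pygl read 2.40 ± 0.07. In glycolysis 26 of 29 genes were detected. Ldha, a lactate dehydrogenase subunit, led at 8.86 ± 0.05. The muscle genes Hk2 and Slc2a4 were above background on some arrays only, and Pgam2 on none.

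Lipid genes were detected without a gap in oxidation, synthesis and cholesterol metabolism. Each of the 33 fatty acid oxidation genes was detected, with a median of 5.20, led by the fatty acid binding protein Fabp1 (9.77 ± 0.06) and the fatty acid hydroxylase Cyp4a2 (8.86 ± 0.30). Both leaders were highest in rat 3, whereas 22 of the 33 were highest in rat 1, against 32.7% of all detected genes. The acyl-CoA thioesterase Acot1 read 3.81, 3.48 and 1.00. All 24 synthesis genes were detected too, at a lower median of 1.47, from the lipid droplet protein Plin2 (7.14 ± 0.09) to the acetyl-CoA carboxylases Acaca (-2.79 ± 0.19) and Acacb (-3.72 ± 0.27). The desaturase Scd read 1.47, 0.54 and 3.58, and its other detected probe -0.18, -1.29 and 1.81, both highest in rat 3.

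Cholesterol synthesis genes had the highest median SD of the intermediary metabolism lists. All 25 were detected, and their median SD of 0.36 lay at a median of the 92.5th percentile for probes of like brightness. In 19 of 25 the highest value was that of rat 3, against 37.1% of all detected genes. The median deviation from the gene's mean was -0.01, -0.24 and 0.26 in rats 1, 2 and 3. Over all detected genes the median deviation was close to 0 in each rat. The isomerase Idi1 read 1.58, 0.66 and 2.30. Hmgcs1, the first enzyme of the list and its brightest, read 6.82 ± 0.32 and was highest in rat 1. Rat 2 was lowest in both genes.

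Bile acid genes were detected in 22 of 24 cases. Scp2, a sterol carrier (9.33 ± 0.15), and Baat, which conjugates bile acids (8.11 ± 0.06), were brightest, and Abcc3, a basolateral exporter, dimmest (-2.43 ± 0.24). Cyp7a1, the rate-limiting enzyme of the classic pathway, read 0.01, -2.54 and 0.01. It was 5.85-fold lower in rat 2 than in rat 3 by a single probe. Nr0b2, a nuclear receptor that represses Cyp7a1, read 3.52, 5.58 and 5.23, lowest in rat 1. The transporters Abcg8 and Slc51a were not detected.

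Iron and antioxidant genes held both very steady and very unsteady members. All 21 iron and heme genes were detected, and the ferritin chains Ftl1 (9.45 ± 0.02) and Fth1 (8.59 ± 0.04) were brightest and nearly equal between rats. Hepcidin (Hamp), the liver hormone that limits iron export, read 8.12, 8.23 and 4.54, a 12.9-fold range with rat 3 low. Of 22 antioxidant genes 21 were detected, led by the metallothioneins Mt1 (9.43 ± 0.11) and Mt2A (8.83 ± 0.12). Nqo1, a quinone reductase, read 1.25, 1.07 and -0.57.

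Regulators were detected nearly as often as enzymes but lay lower. Of 35 hepatocyte transcription factors and nuclear receptors 31 were detected, with a median of 1.88. Creb3l3, a membrane-bound factor of the liver (7.89 ± 0.02), and the xenobiotic receptor Nr1i2 (5.91 ± 0.26) led, and the master factor Hnf4a read 0.38, 0.46 and 0.16. Esr1, Thrb and Vdr, receptors for oestrogen, thyroid hormone and vitamin D, were not detected. In the growth hormone and IGF axis 18 of 20 genes were detected, from Igf1, the main circulating growth factor made by liver (8.97, 9.03 and 9.20), to Socs3 (-2.42 ± 0.35), a feedback inhibitor. Of 15 clock genes 13 were detected, led by the output factors Dbp (2.46 ± 0.17) and Tef (1.99 ± 0.18). The repressor Per2 read -0.98, -2.19 and -1.33.

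**Figure D2:**
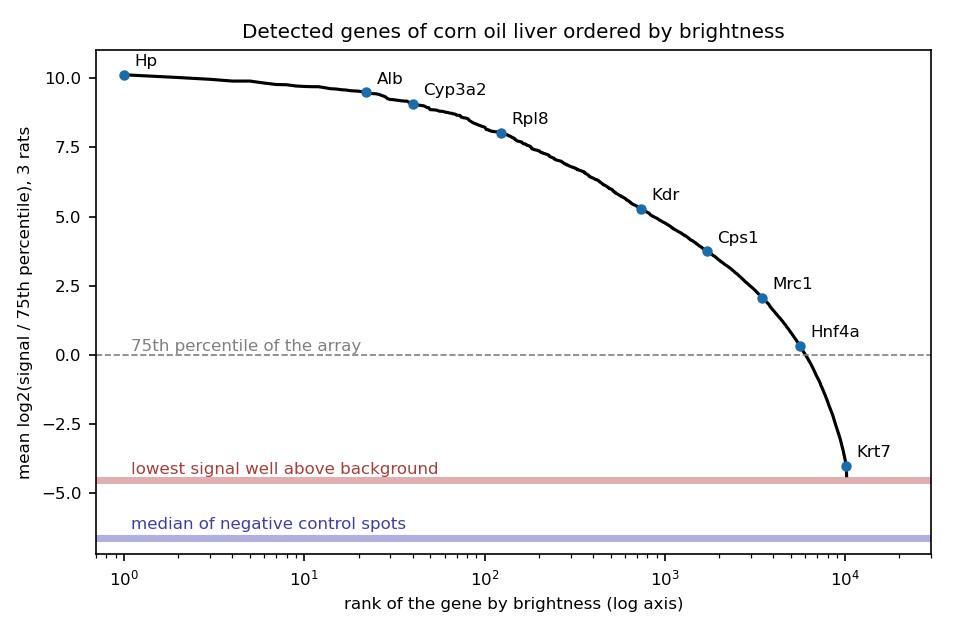
Mean log2 signal over the 75th percentile for all 10184 detected genes, ordered from brightest to dimmest on a log rank axis, with 9 genes marked and bands over the 3 arrays for the lowest signal called well above background and the median negative control. The curve falls slowly over the first genes, from 10.12 at Hp, and crosses 0 after 6031 genes.

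The scale from brightest to dimmest detected probe spanned 14.8 log2 units, a 28638-fold range, and the central 98% of detected probes spanned 11.9. The median detected probe lay at -0.28. The 10 brightest probes held 2.52% ± 0.05 of the summed signal of an array, the 100 brightest 17.7% ± 0.28 and the 1000 brightest 60.1% ± 0.39. Counted by gene, 1511 lay above 4, 498 above 6 and 124 above 8. No spot was saturated, and the brightest reached 690750 against a saturation level of 778908. The 10 added control RNAs spanned -6.62 to 9.71 on the same scale, the brightest of them just below Mup4l3. Those at -6.62 and -6.45 lay near the median of the negative control spots (-6.72 to -6.53) and below the lowest signal called. The next brighter control RNA read -3.52.

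Marker genes were read against the labelled tissue and sex. All 12 hepatocyte markers were detected, with a median of 7.62. All 10 genes known to be higher in male rat liver were detected, at a median of 8.27, among them the steroid hydroxylases Cyp2c11 (8.53, 8.33 and 7.97) and Cyp2c13 (8.74, 8.16 and 8.39). Cyp2a2 read 5.90 ± 0.09, Hsd11b1 6.85 ± 0.38, Sult1e1 4.04 ± 0.49 and Stac3 2.71, 2.15 and 4.11. Both measured Y chromosome genes were detected, Eif2s3y at 0.43 ± 0.04 and Ddx3y at -0.74 ± 0.12, and Xist was not measured.

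Genes known as higher in female rat liver were not all silent. Of 6 measured, 4 were detected (66.7%), a share equal to the 66.6% of all measured genes. The other 2 (A1bg and Sult2a2) were above background on some arrays only. Cyp2c12, the classic female P450, read 4.14, 3.57 and 4.68, though it resembles other Cyp2c genes. The steroid reductase Srd5a1 read 3.35, 3.38 and 4.70, and the prolactin receptor Prlr -0.65, -1.08 and 1.94. These 3 were highest in rat 3, while Cyp2a1 (5.00, 4.85 and 4.45) was lowest there. A1bg was above background only in rat 3, at -0.33.

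Markers of the other cell types of liver were detected to differing extents. Shares ran from 33.3% for neutrophil markers to 100% for macrophage and stellate cell lists, beside 66.6% of all measured genes. In this whole-tissue RNA fewer cells of a type and less RNA per cell cannot be told apart. All 14 measured Kupffer cell and macrophage markers were detected, led by Clec4f, the rodent Kupffer cell lectin (6.18, 6.36 and 5.92), and the complement subunit C1qb (5.82 ± 0.17). Within this list C1qa (4.48 ± 0.13), Lyz2 (4.44 ± 0.14), Aif1 (3.83 ± 0.06), Cd68 (3.42 ± 0.07), Cd5l (2.59 ± 0.15), C1qc (2.41 ± 0.23) and Mrc1 (2.07 ± 0.05) came next. Cd163 (1.24 ± 0.23), Marco (0.72 ± 0.41), Adgre1 (0.63 ± 0.13), Vsig4 (0.48 ± 0.48) and Csf1r (-0.39 ± 0.15) were dimmer. Of the 14 markers 12 were highest in rat 2, with a median deviation of 0.15 there and -0.13 in rat 3. Over all detected genes 30.3% were highest in rat 2.

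Endothelial markers were detected in 9 of 10 cases. The VEGF receptor Kdr read 5.31, 5.26 and 5.27, and the sinusoidal markers Fcgr2b, Oit3 and Lyve1 read 3.70 ± 0.15, 2.11 ± 0.12 and 2.00 ± 0.12. Pecam1 (1.65 ± 0.10), Eng (0.20 ± 0.04), Gpr182 (-0.77 ± 0.16), Cdh5 (-1.59 ± 0.35) and Flt1 (-2.94 ± 0.09) completed the list, and Tek was above background on some arrays only. All 14 stellate cell and matrix genes were detected, led by Ecm1 (4.73 ± 0.15) and the collagens Col3a1 (4.44 ± 0.11) and Col1a2 (3.58 ± 0.05). Reln, Lrat, Timp1, Pdgfrb and Col1a1 lay between 2.58 and 0.75, and Vim, Dcn, Hgf and Rgs5 between 0.12 and -0.91. Acta2 (-1.77 ± 0.22) and Des (-2.22 ± 0.13) were the dimmest of this list.

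Bile duct and lymphocyte markers were mostly dim. Of 9 cholangiocyte markers 7 were detected, none above the 75th percentile, from Epcam (-0.10 ± 0.34) through Tff3 (-1.82 ± 0.18), Cldn4 (-2.25 ± 0.06), Spp1 (-2.59 ± 0.60) and Krt19 (-2.67 ± 0.40) to Krt7 (-3.56, -3.91 and -4.53), and Cftr and Anxa13 were above background on some arrays only. T and natural killer cell markers were detected in 11 of 15 cases, with the granule genes Gzma (0.11, 0.79 and 0.95), Prf1 (-0.35, -0.02 and 0.13) and Nkg7 (-0.17 ± 0.12) brightest. The receptor chains Cd3d and Cd3g read -0.44 ± 0.16 and -1.16 ± 0.14. Gzmb, Cd8a, Cd4, Cd8b, Klrd1 and Lck lay from -2.41 down to -3.60, Cd2 and Klrb1a were above background on some arrays only, and Cd3e and Ncr1 on none. Rat 1 was highest in none of these 11, against 32.7% of all detected genes.

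B cell markers were detected in 4 of 7 cases. Pax5 read 0.87 ± 0.11, and Cd22 and Cd79b read -1.51 ± 0.54 and -2.42 ± 0.18, with Mzb1 above background on some arrays only and Blk and Cr2 on none. Of 9 neutrophil markers 3 were detected, S100a9 (0.24 ± 0.43), S100a8 (-0.70 ± 0.34) and Camp (-1.08 ± 0.34), and the 6 undetected were Csf3r, Elane, Ngp, Cxcr2, Ltf and Mmp8. Globin genes were bright, with Hba-a1 at 8.66, 8.29 and 9.03, Hbb at 7.67, 7.35 and 8.13, and Hbb-b1 at 7.66, 7.28 and 8.19. The heme enzyme of red cell precursors, Alas2, followed the same order at 1.02, 0.47 and 1.70. Ahsp, a globin chaperone, read -0.98, -0.35 and 0.68, and the membrane protein Slc4a1 -1.43, -0.99 and -0.34. Epor read -2.08 ± 0.06 and Klf1 was above background on some arrays only. In 6 of these 7 detected red cell genes rat 3 was highest, against 37.1% of all detected genes. The summed signal of the 7 genes ranged from 634 to 1099.9 times the 75th percentile. Their part in the other values that were highest in rat 3 was not tested.

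Markers of the lobule's zones, read here in whole tissue, were detected in 14 of 14 periportal and 13 of 14 pericentral cases. Cyp2e1, an ethanol-oxidising P450 of the pericentral zone, read 8.69, 8.34 and 7.94 and was highest in rat 1. Glutamine synthetase (Glul), restricted to the cells around the central vein, read 3.14, 2.48 and 2.61. Lgr5 was not detected and Axin2, like it a Wnt target, read -2.24 ± 0.46. Of the pericentral genes 8 of 13 were highest in rat 1, and of the periportal genes 1 of 14, beside 32.7% of all detected genes.

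Fetal liver genes were mostly undetected or dim. Over all measured genes 66.6% were detected, and 39.5% were detected with a level above the 75th percentile. Of 11 fetal genes measured, 5 were detected (45.5%) and 1 lay above the 75th percentile. That was alpha-fetoprotein (Afp), the fetal counterpart of albumin, at 3.60, 3.01 and 3.25. Igf2 read -1.13 ± 0.42, Spp1 -2.59 ± 0.60, the imprinted RNA H19 -2.93 ± 0.49 and Gpc3 -3.82 ± 0.25. Dlk1 was above background on some arrays only, and Igf2bp1, Hbe1, Hbg1, Hmga2 and Plagl1 on none.

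**Figure D3:**
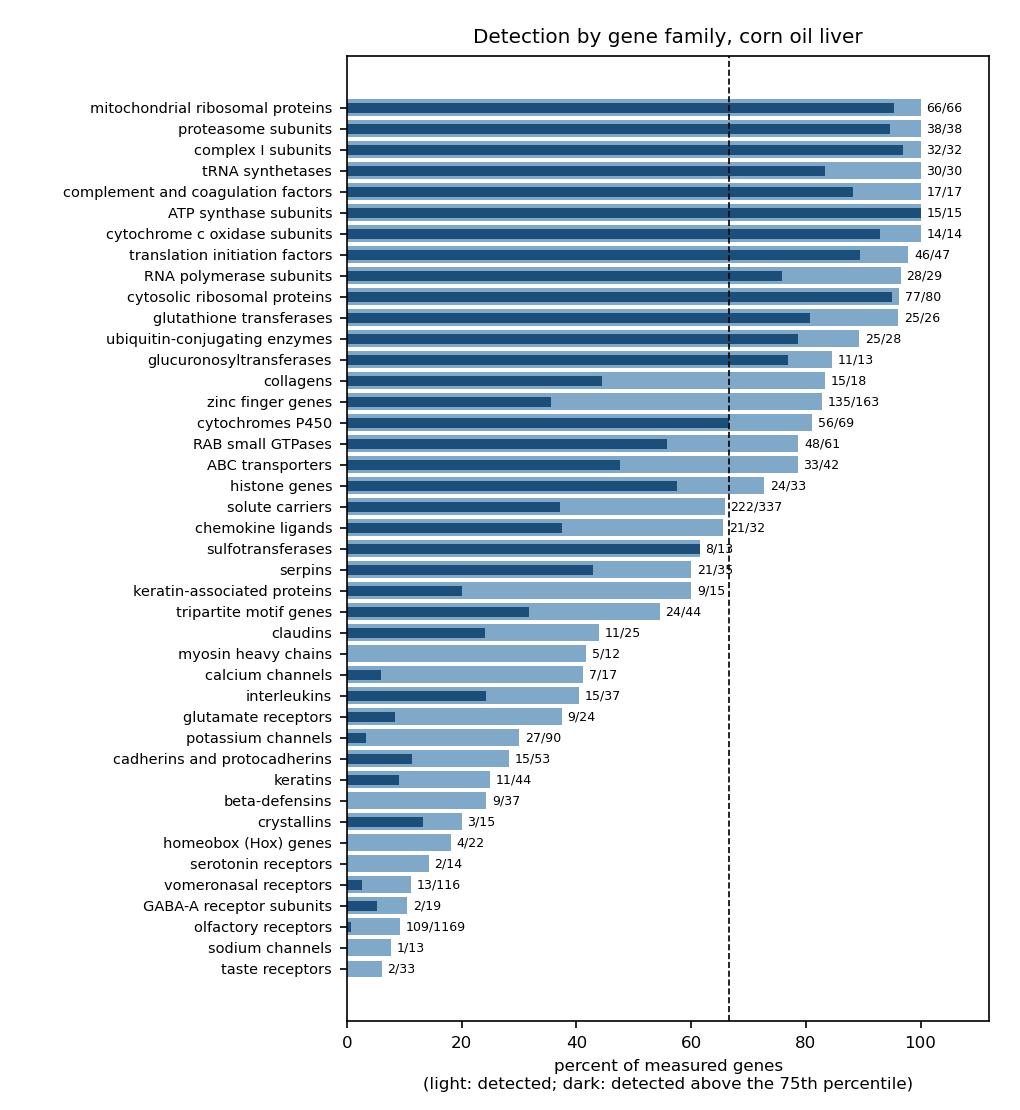
Share of measured genes detected in each of 42 gene families (light bars, with the counts) and share detected above the 75th percentile (dark bars). The dashed line is the 66.6% of all measured genes that were detected; mitochondrial, proteasome and translation families reach or approach 100%, and taste, sodium channel and olfactory families stay under 10%.

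The share of detected genes differed widely between gene families. All measured complex I (32), ATP synthase (15), cytochrome c oxidase (14), mitochondrial ribosomal (66), proteasome (38) and tRNA synthetase (30) genes were detected. Cytosolic ribosomal proteins were detected in 77 of 80 cases with a median of 7.12 and a median SD of 0.05, led by Rpl41 (9.17 ± 0.07) and Rplp1 (8.80 ± 0.05). The oxidase subunits Cox6a1 (8.25 ± 0.06) and Cox4i1 (7.74 ± 0.04) and the ATP synthase subunit Atp5f1a (8.04 ± 0.02) were steady too. Cytochromes P450 as a whole were detected in 56 of 69 cases and solute carriers in 222 of 337, the latter led by the fatty acid transporters Slc27a2 (8.70 ± 0.13) and Slc27a5 (7.94 ± 0.36).

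Neuronal and sensory families were mostly undetected. Olfactory receptors were detected in 109 of 1169 cases (9.32%), vomeronasal receptors in 13 of 116, taste receptors in 2 of 33, GABA-A receptor subunits in 2 of 19 and sodium channels in 1 of 13. Single members nonetheless read high. The olfactory receptor probe of Or4f7c read 5.02, 4.93 and 4.94, that of Vom2r34 3.50 ± 0.17, and that of the glutamate receptor subunit Grin2d 6.54 ± 0.07. Whether these probes bind their named transcript was not tested. Homeobox (Hox) genes were detected in 4 of 22 cases, none above -2.10. Of 44 keratins 11 were detected, and the hepatocyte pair Krt18 (7.97 ± 0.24) and Krt8 (2.51 ± 0.21) were brightest.

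Marker genes of other tissues were detected in 39 of 123 cases (31.7%) with a median of -2.00, against 427 of 446 (95.7%) with a median of 4.99 for liver function genes. Of the 8 lung genes none was detected, and of 14 testis genes 2 were, the germ cell genes Prm2 (-2.88 ± 0.23) and Acr (-3.01 ± 0.13). Of 15 pancreas genes 4 were detected, Cpb1 (-1.91, -0.61 and -0.32), Ctrb1 (-1.28 ± 0.17) and Ins1 (-2.03 ± 0.31) among them, while the trypsin and lipase genes Prss1 and Pnlip were not. Of 19 muscle genes 8 were detected, and only Actc1, cardiac actin, lay above the 75th percentile (1.60 ± 0.09). Tnni2, Mb, Tnnc2, Tnnt2, Myl11, Ckm and Tnni3 lay between -0.87 and -3.35.

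A few such genes read well above the 75th percentile in all 3 rats. The water channel Aqp2, known from kidney, read 3.02, 3.16 and 3.23, but its other detected probe had a mean of only -3.06, and whether the brighter probe binds its named transcript was not tested. The fat genes Cidea, a lipid droplet protein (3.98, 3.57 and 2.33), and Cfd, the protease adipsin (2.93, 3.45 and 3.23), stood beside an almost dark Fabp4 (-3.38 ± 0.79) and undetected Adipoq, Lep and Ucp1. Th (1.28 ± 0.07), Fabp2 (1.01 ± 0.47), Crygs (0.56 ± 0.29) and Pomc (0.40 ± 0.08) also passed. The kidney genes Lrp2 (-0.42 ± 0.09), Slc5a2 (-2.72 ± 0.23) and Slc12a3 (-2.97 ± 0.39) were dim, as were Eno2, Mbp, Grin1 and Gad1 of nerve, between -2.47 and -3.91. Gast, Alpi, Atp4a, Lct and Tff1 of the gut lay between -0.07 and -2.08. Gnat1 of the eye read -0.53 ± 0.64, and the hormone chains Cga and Lhb -3.04 ± 0.52 and -4.18 ± 0.20.

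Spread between the rats was small for most probes and fell with brightness. The median SD was 0.13 over detected probes, 0.22 in the dimmest 10% and 0.08 in the brightest 10%. Pearson correlations across the 33095 detected probes, which are not independent replicates, were 0.993 for rats 1 and 2, 0.990 for rats 1 and 3 and 0.991 for rats 2 and 3. More than 2-fold apart were 656, 922 and 854 probes in the same order. Of the 10184 genes, 541 (5.31%) had an SD over 0.5 and 75 (0.736%) over 1. In 251 of the 541 rat 3 was the rat farthest from the others, against 154 for rat 1 and 136 for rat 2. Among the 20 genes of highest SD the counts were 9, 3 and 8 for rats 1, 2 and 3. The same count over all detected genes was not made. The added control RNAs of medium and high level were 0.09 to 0.13 apart (SD) between arrays, with rat 3 highest, and the array of rat 3 had the lowest 75th percentile (503 against 523 and 523).

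**Figure D4:**
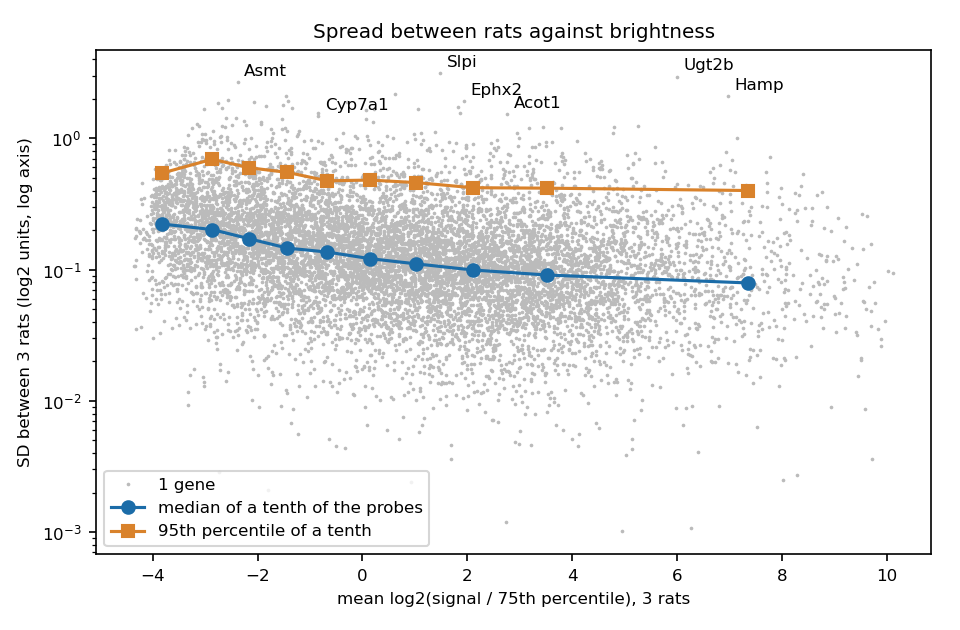
SD between the 3 rats (log axis) against mean log2 signal for each detected gene (grey), with the median and the 95th percentile in 10 equal groups of the detected probes by brightness. The median falls from 0.22 to 0.08, and 7 genes marked by name stand far above the 95th percentile line.

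The steadiest genes above the 75th percentile included Eif3c and Rps7 of translation, the ribosomal gene Rpl8 (8.03, 8.02 and 8.03), Pemt, which makes phosphatidylcholine (6.26, 6.26 and 6.26), and angiotensinogen (Agt; 8.29, 8.30 and 8.29). Timm17b, Rnaseh2b, Mup4l3, Naa30 and Aifm1 completed the 10. These were picked as the lowest SDs of 3 values among 6031 genes, and none exceeded 0.0041. Repeated spots of a control RNA above the 75th percentile had larger SDs, 0.03 to 0.08 within an array. Such small SDs are thus below what the arrays resolve and do not set these genes apart from other steady ones. Of 17 commonly used reference genes all were detected, from B2m (9.18 ± 0.08) to Tbp (-0.28 ± 0.07), and beta-actin (Actb) was the least steady at 5.71, 6.24 and 5.73.

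The 20 genes of highest SD differed between rats by 7.73-fold or more. The first was Slpi, a protease inhibitor of mucosal and inflamed tissue, at 3.58, 2.97 and -2.11, a 51.9-fold range. Its other probe read 2.18, 1.44 and -3.56, so both probes put rat 3 far below the others. Next came the glucuronosyltransferase gene Ugt2b, at 2.60, 7.90 and 7.52, a 39.3-fold range with rat 1 low. Its 2 other probes read -3.15, 7.77 and 7.50, and -3.53, 2.30 and 1.64. All 3 probes of Ugt2b thus showed the same rat low.

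Hamp, given above, was 12.9-fold lower in rat 3 than in rat 2. Ephx2, the soluble epoxide hydrolase, read -0.27, 3.17 and 2.91 and so was low in rat 1. Igfbp2, an IGF binding protein, read 2.45, 3.14 and -0.14, and its other probes 1.68, 2.41 and -0.83, and -1.16, -0.42 and -4.03. Cish, a target of growth hormone signalling, read 1.57, 0.76 and -1.67, while its other probe read 0.31, -0.08 and -0.88. Both genes were lowest in rat 3 by every detected probe.

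Of the remaining genes, Asmt, which makes melatonin (-3.99, -3.85 and 0.72), and Toe1 (-3.93, -4.04 and -1.09) were high in rat 3 alone. Syne4 (-1.90, 1.73 and 2.04), Tex10 (-3.64, -0.29 and -0.36), Gpm6a (-3.29, -0.39 and -0.33) and Nfatc4 (-0.83, 2.35 and 1.66) were low in rat 1. Cd37 (-3.44, -0.66 and -4.16), Vax2 (-3.02, -0.83 and -4.20), Cib2 (-0.27, 1.58 and -2.17) and Exoc4 (-3.34, -0.34 and -4.01) were high in rat 2. The other Exoc4 probe did not follow, with an SD of 0.24, and the other Tex10 probe detected on all arrays read -3.42, -3.52 and -1.80, high in rat 3. The defensins Defa5 (0.64, -1.46 and -3.55) and RatNP-3b (0.29, -1.52 and -3.30), which are granule peptides of neutrophils and Paneth cells, were highest in rat 1 and lowest in rat 3, as was the zinc transporter Slc30a2 (-0.05, -2.39 and -3.79). Duoxa1 was highest in rat 3 (-3.58, -1.87 and -0.05). Of the 3 detected neutrophil markers, Camp was also highest in rat 1 (-0.69, -1.29 and -1.27), and S100a8 and S100a9 were highest in rat 3. The part of neutrophils in the defensin values was not tested.

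**Figure D5:**
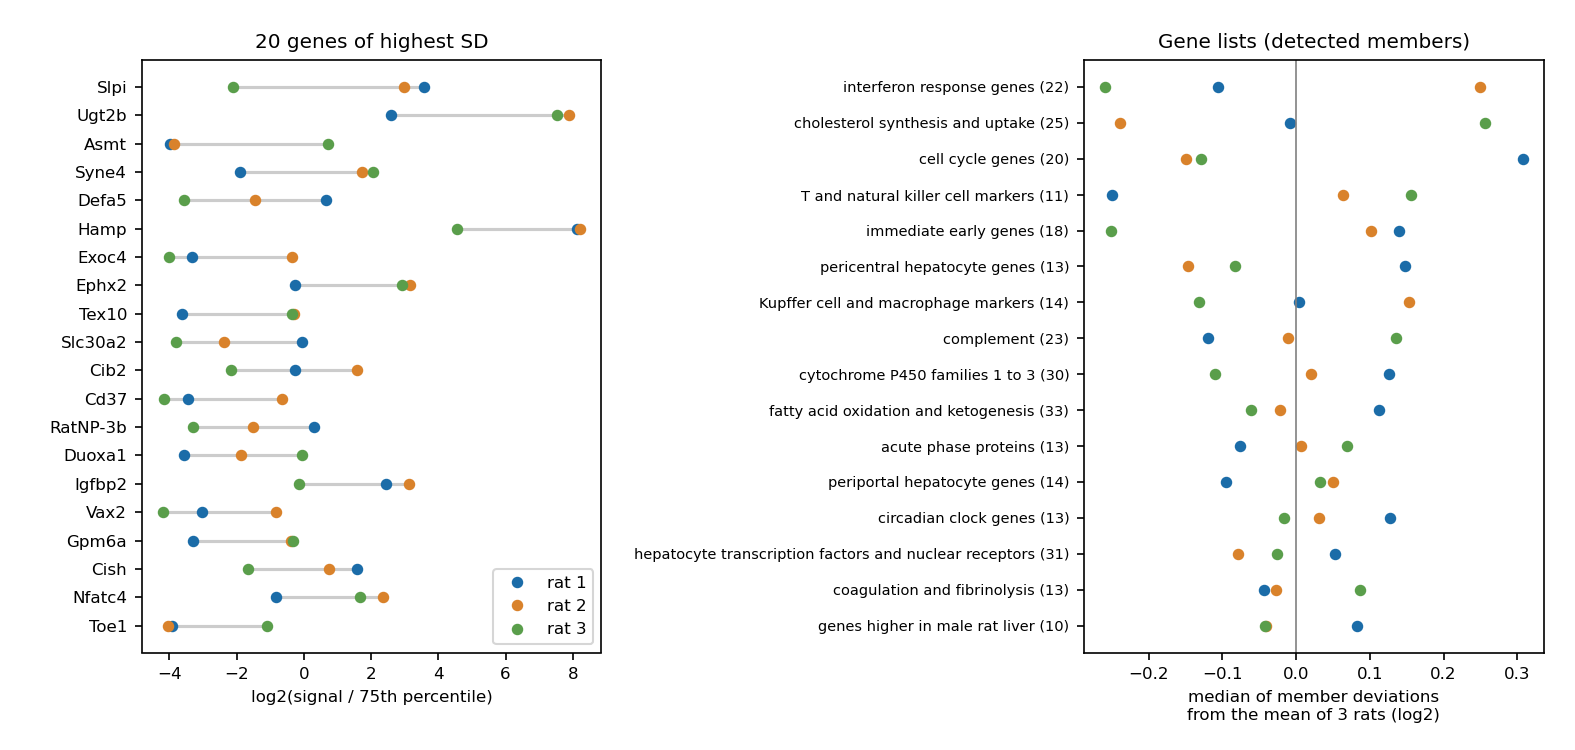
Left, log2 signal over the 75th percentile in each rat for the 20 genes of highest SD. Right, median deviation of a list's detected members from their own 3-rat means, for the 16 lists of at least 10 detected members with the widest range; interferon genes are highest in rat 2, cholesterol synthesis in rat 3 and cell cycle genes in rat 1.

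Several gene lists were shifted in the same direction in 1 rat. Interferon response genes were highest in rat 2 in 17 of 22 cases, with median deviations of -0.11, 0.25 and -0.26. Among them Ifi27 read 8.24, 8.55 and 8.09, Mx2 6.72, 7.19 and 6.79, and Oasl -3.38, -1.91 and -3.76. The share of all detected genes highest in rat 2 was 30.3%. The macrophage markers were highest in the same rat, their summed signal lay between 199.5 and 242 times the 75th percentile over the 3 rats, and their part in the result was not tested. Cell cycle genes were highest in rat 1 in 17 of 20 cases, with median deviations of 0.31, -0.15 and -0.13, and 32.7% of all detected genes were highest in that rat. Cyclin D1 (Ccnd1) read 3.72, 3.46 and 1.69, Ccna2 -2.32, -2.98 and -2.63, and Ccnb1 -3.18, -4.28 and -3.68. The brightest gene of this list was the cycle inhibitor Cdkn1a (5.84 ± 0.05).

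Immediate early genes, which respond quickly to many stimuli, were detected in 18 of 22 cases and were lower in rat 3, with median deviations of 0.14, 0.10 and -0.25. Egr1 read 0.77, -1.01 and -2.32, Ier2 4.16, 4.11 and 3.25 and Jund 4.31, 4.29 and 3.99, while Fos stayed near the floor at -3.54, -3.68 and -3.51. Of heat shock genes 14 of 15 were detected. Hspa8 read 8.07 ± 0.09 and the inducible Hspa1a -0.86, -0.07 and -2.02. These patterns rest on 1 array for each rat. They are given without a test.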

How the data were processed

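Liver RNA of 3 corn oil rats was measured on 1-colour Agilent arrays, 1 rat per array. Per the file headers, the deposited spot intensity was extracted with Feature Extraction 10.7.1.1, with background subtracted and no scaling between arrays. The submitters' processing notes name version 10.7. The authors' deposited value table holds the ratio of that signal to a single value per array, within 0.126% of its 75th percentile, and served as an alternative; its 3 columns of treated rats were not used. Here, processed signals of non-control probes were divided by the array's 75th percentile and log2-transformed in Python 3.11.15, leaving out 5 outlier spots. Probes were named by accession through RefSeq's GRCr8 table, and the headers name rn4. Alternatives used limma 3.58.1 in R 4.3.3. The procedure was tested on simulated data. Members, 54 gene lists and 42 symbol families were chosen with earlier results of these data known. Named were the 30 brightest genes, the 20 of highest and 10 of lowest SD, each list's 2 brightest, 2 dimmest and least steady members, undetected liver genes, detected other-tissue genes, sex and cell type lists, and each family's 2 brightest. Tdo2, Pygl and Cyp1a2 were picked after their values were seen. Some genes that this rule names are not reported here.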

Additional observations from a re-analysis of the deposited data

How the results depend on the processing

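The count of detected probes (33095) lay between 33095 and 37459 and that of detected genes (10184) between 10184 and 11099 under every alternative. Detection rests on the scanner software's call, which scaling and background correction do not change. The counts could only rise, where fewer arrays were required, so their range does not test the processing. Of the 30 brightest genes, 26 to 30 were the same ones. The span of the central 98% of detected probes, 11.9 log2 units, became 10.3 with normexp background correction, 12.2 where detection on 2 arrays was enough and 13.2 where 1 array was enough, and 11.9 to 12.0 when a rat was left out. The median SD of 0.133 became 0.102 with normexp and 0.151 with detection on at least 1 array. It lay between 0.0950 and 0.120 when a rat was left out, as an SD of 2 values has a lower median by construction. Of the 20 genes of highest SD, 10, 14 and 10 were among the 20 highest without rat 1, 2 and 3, 15 with normexp and all 20 with quantile scaling or the authors' table. Genes of the lists detected numbered 692 to 728, a count that could likewise only rise. Of 59 levels of named genes, 34 moved by more than their SD with normexp, 39 with scaling to the median of detected probes, 22 with the median of a gene's probes, 3 with the authors' table and 2 with quantile scaling. Levels of dim probes are limited by background, with the lowest called signal near -4.5. No paired analysis was possible because no groups were compared.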

Other observations

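Some genes left out of the levels above, because they were not above background on all 3 arrays, still read high in 1 rat. They were chosen after their values were seen. Akr1b7, an aldo-keto reductase, read 1.84 in rat 3 and was not well above background in rats 1 and 2. Ces2e, a carboxylesterase, read 0.83 in rat 3 and was not well above background in the others. Aqp3, a water and glycerol channel, read 0.28 in rat 1 and was not well above background in rat 2. Of the genes above background on some arrays only, 4 had a probe above the 75th percentile on any array.

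A large part of the bright signal has no gene name here. Of the 100 brightest probes 58 were named, standing for 39 genes, and 42 were not, including the pair at the very top (10.36 ± 0.06 and 10.27 ± 0.05). Of the 796 custom probes 767 (96.4%) were detected, with a median of 3.08, against 62.3% and 0.14 for probes named through RefSeq.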
